A study of Arabidopsis thaliana with 31 samples.

Results

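The 10 genes described here encode alpha-expansins of Arabidopsis thaliana and were taken by their identifiers from the 32833 genes of each deposited table. They are EXPA1 (AT1G69530), EXPA2 (AT5G05290), EXPA3 (AT2G37640), EXPA4 (AT2G39700), EXPA5 (AT3G29030), EXPA6 (AT2G28950), EXPA8 (AT2G40610), EXPA10 (AT1G26770), EXPA11 (AT1G20190) and EXPA15 (AT2G03090). Expansins are secreted wall proteins that loosen the contacts between cellulose and matrix polysaccharides without cutting them, and they act best at acid pH. Plasma membrane proton pumps acidify the wall and so allow expansins to act, which is the basis of acid growth in elongating shoots, expanding leaves and root hairs. Auxin, brassinosteroids and gibberellin are known to control many alpha-expansin genes.

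RNA was sequenced from whole 12-day-old seedlings raised on soil in long days, in 31 libraries of 2 experiments. Experiment A held the wild type Col-0 (n = 2), gcn5-7 (n = 3), arp6-1 (n = 3) and the double mutant gcn5-7 arp6-1 (n = 3). Experiment B held Col-0, gcn5-7, the double mutant nrp1-1 nrp2-2 and the triple mutant gcn5-7 nrp1-1 nrp2-2 (n = 5 each). GCN5 acetylates histone H3. ARP6 is a subunit of the SWR1 remodeller, which puts H2A.Z into nucleosomes, and the related NRP1 and NRP2 proteins act as histone chaperones. What the alleles change in each gene is not given in the labels, nor whether replicates were separate plantings, so p-values measure the spread between these libraries, which may be technical.

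Values are TPM scaled by TMM, a level per transcript length that can be compared between genes, and differences are log2 with a pseudocount of 1, which understates the change of low genes. Depth, worked back from the values, was 38.3 to 39.6 M reads for the libraries of A, and those of B had 10.3 to 16.8 M. In A, ARP6 was at 27.2 ± 12.6 (SD, n = 2) in Col-0 and 0.214 ± 0.133 (n = 3) in arp6-1. In B, NRP2 was at 11.8 ± 2.37 (n = 5) in Col-0 and 0.208 ± 0.195 (n = 5) in nrp1-1 nrp2-2, and NRP1 at 27.8 ± 4.68 and 6.91 ± 2.01. GCN5 RNA was at 5.61 ± 1.45 in Col-0 and 4.44 ± 1.34 in gcn5-7 of B (limma adjusted p = 0.33), and at 6.74 ± 1.05 and 8.39 ± 3.05 in A (adjusted p = 0.988), so its level does not check the gcn5-7 label. Because whole seedlings were sampled, fewer expanding cells and less RNA per cell cannot be told apart.

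The 10 genes lie on chromosomes 1, 2, 3 and 5 (TAIR10.1, RefSeq). EXPA3, EXPA4, EXPA6, EXPA8 and EXPA15 are all on chromosome 2, on the minus strand. Coding lengths run from 759 to 828 bases, and the longest identical run between any of their transcripts and another alpha-expansin was 36 bases, between EXPA2 and EXPA14. EXPA2 (chr5:1568694-1569915) overlaps AT5G05300 on the opposite strand.

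The promoters of the 4 genes that passed the test in gcn5-7 of B, and of EXPA1, the gene with the highest level in Col-0 of B, are shown so that their hormone and light response motifs can be compared. Each run is the 250 bases before the annotated start, on the gene's strand, from RefSeq TAIR10.1. EXPA11 is chr1:6999840-7000089 (minus strand), EXPA10 is chr1:9259182-9259431 (plus), EXPA5 is chr3:11013452-11013701 (minus), EXPA6 is chr2:12433797-12434046 (minus) and EXPA1 is chr1:26141476-26141725 (plus). Capitals mark a match, on either strand, to CACATG (an E-box bound by PIF factors) or CGTGTG (a variant of the brassinosteroid response element). They also mark TGTCTC (the auxin response element) and TATAAA (the letters of a TATA box, matched at any position). The TATAAA match of EXPA5 is on the gene's strand, 60 bases before the start. That of EXPA11 is on the opposite strand, 217 bases before it.
EXPA11: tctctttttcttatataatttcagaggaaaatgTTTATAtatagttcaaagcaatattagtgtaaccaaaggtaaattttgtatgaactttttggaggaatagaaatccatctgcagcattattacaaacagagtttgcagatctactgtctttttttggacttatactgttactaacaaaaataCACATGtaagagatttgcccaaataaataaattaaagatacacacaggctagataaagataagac
EXPA10: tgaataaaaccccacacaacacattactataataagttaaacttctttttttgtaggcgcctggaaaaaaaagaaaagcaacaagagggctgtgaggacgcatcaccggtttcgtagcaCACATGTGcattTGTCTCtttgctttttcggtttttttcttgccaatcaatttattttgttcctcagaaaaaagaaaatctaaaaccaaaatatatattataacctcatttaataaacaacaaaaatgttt
EXPA5: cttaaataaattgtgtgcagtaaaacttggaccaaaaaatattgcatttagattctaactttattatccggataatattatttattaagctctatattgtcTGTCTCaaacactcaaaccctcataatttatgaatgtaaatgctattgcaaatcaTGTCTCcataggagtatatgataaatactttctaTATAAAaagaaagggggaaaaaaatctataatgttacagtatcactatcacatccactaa
EXPA6: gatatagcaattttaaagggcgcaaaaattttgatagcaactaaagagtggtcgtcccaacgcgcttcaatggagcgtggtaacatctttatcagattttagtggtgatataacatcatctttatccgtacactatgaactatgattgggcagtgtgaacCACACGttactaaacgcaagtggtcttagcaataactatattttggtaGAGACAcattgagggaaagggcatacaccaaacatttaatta
EXPA1: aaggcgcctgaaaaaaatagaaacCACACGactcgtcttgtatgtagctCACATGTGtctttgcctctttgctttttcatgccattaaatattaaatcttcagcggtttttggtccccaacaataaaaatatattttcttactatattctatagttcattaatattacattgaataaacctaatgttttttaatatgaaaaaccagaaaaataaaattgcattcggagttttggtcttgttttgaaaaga
CACATG stands in 4 of the 10 promoters (EXPA1, EXPA2, EXPA10 and EXPA11), against 11.1% of 27443 coding-gene promoters of the same length. In EXPA1 and EXPA10 it is present on both strands, in overlapping copies. TGTCTC stands in 3 (EXPA5 with 2 copies, EXPA6 and EXPA10), against 10.9%, and CGTGTG in 3 (EXPA1, EXPA2 and EXPA6), against 5.37%. TATAAA stands in 5 (EXPA3, EXPA4, EXPA5, EXPA11 and EXPA15), against 47.3%. CACGTG (the G-box, 6.49% of promoters), CGTGCG (the brassinosteroid response element, 1.57%) and TGTCGG (a high-affinity auxin response element, 4.16%) were found in 0 of the 10. No motif searched is shared by all 4 genes that passed the test, and EXPA8 holds none of the 7. These matches describe letters in a short window and not sites of binding.

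EXPA1 had the highest level in Col-0 of B, and its 5 libraries did not overlap those of the next gene. EXPA1, known for wall loosening in guard cells during stomatal opening, was at 324 ± 140 (SD, n = 5), or 35.7% of the summed level of the 10 genes. EXPA6 followed at 152 ± 50.8, EXPA5, a brassinosteroid-regulated expansin, at 121 ± 51.9, and EXPA10, known from antisense lines to affect leaf size, at 103 ± 24.7. The libraries of each of these 3 overlapped those of its neighbour in the order. EXPA4 was at 61.3 ± 32.8, EXPA11 at 47.8 ± 18.9, EXPA3 at 37.4 ± 15.5, EXPA8 at 33.5 ± 19.6 and EXPA15 at 26.9 ± 10.8, again overlapping their neighbours among these. EXPA2, a gibberellin-responsive expansin of germinating seeds, was at 0 in all 5 libraries, where 3 reads would give a value of 0.249 to 0.472. Over the 31 libraries EXPA2 had at most 6 reads. It did not reach the minimum mean of 1 and was not tested, so 9 of the 10 genes were tested in each experiment. In A, Col-0 was led by EXPA5 at 263 ± 273 (n = 2), and neighbours in the order overlapped except EXPA8 and EXPA2.

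In B, gcn5-7 had the lowest group mean of the 4 genotypes for all 9 tested genes, and 4 of them fell against Col-0. All 9 differences were below 0, with a median of -1.08, beside 0.06 over all 19507 genes tested. The 4 calls, EXPA11, EXPA10, EXPA5 and EXPA6, stand beside a background of 14.7% of genes called lower and 26.2% called in either direction (limma, Benjamini-Hochberg adjusted p below 0.05 over all genes).

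EXPA11 differed most. Its Col-0 libraries read 66.4, 32.8, 22.8, 59.2 and 57.7 for replicates 1 to 5, and its gcn5-7 libraries 4.31, 13.2, 10.999, 25.6 and 17.7. Replicate 1 of gcn5-7 was the lowest, and gcn5-7 replicate 4 lay just above the lowest Col-0 library. EXPA11 fell from 47.8 ± 18.9 to 14.4 ± 7.93, a log2 difference of -1.75 ± 0.40 (SE) with an adjusted p of 0.00459 (limma).

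EXPA10 read 137, 115, 72.1, 99.995 and 90.2 in Col-0 and 30.2, 61.1, 37.9, 58.2 and 37.6 in gcn5-7. Every gcn5-7 library was below every Col-0 library. The fall was -1.19 ± 0.30 (adjusted p = 0.00893, limma).

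EXPA5 read 190, 163, 98.9, 74.7 and 80.3 in Col-0 and 33.1, 62.9, 59.5, 56.2 and 36.4 in gcn5-7. The groups did not overlap here either, which held for these 2 genes among the 9 and for 11.2% of all genes in this direction. EXPA5 fell by 1.22 on the log2 scale (SE 0.43, limma adjusted p = 0.0435).

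EXPA6 read 209, 205, 115, 125 and 104 in Col-0 and 78.3, 105, 87.8, 72.0 and 68.1 in gcn5-7. Replicate 2 of gcn5-7 lay inside the Col-0 range and the other 4 below it. EXPA6 fell by 0.83 on the log2 scale (SE 0.30, limma adjusted p = 0.049), at the edge of the threshold.

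For the other 5 genes the difference did not pass. EXPA4, which acts in pollen tube growth, was at 24.1 ± 5.86 in gcn5-7 (-1.16, 95% interval -2.06 to -0.25, limma adjusted p = 0.054), with 4 of its 5 libraries below the lowest of Col-0. EXPA3 was at 18.6 ± 10.2 (-1.04, -1.95 to -0.12, adjusted p = 0.084, limma). Both intervals lie below 0, although neither gene passed once all genes were counted. EXPA8 was at 16.0 ± 10.9 (-1.08, -2.35 to 0.19, adjusted p = 0.187, limma). EXPA1, the most abundant, was at 249 ± 108 (-0.45, -1.43 to 0.52, adjusted p = 0.483, limma) and EXPA15 at 21.2 ± 7.42 (-0.29, -1.27 to 0.69, adjusted p = 0.671, limma). EXPA1 made up 47.9% of the summed level of the 10 genes in gcn5-7 and EXPA11 2.77%, against 35.7% and 5.27% in Col-0. The intervals of EXPA8, EXPA1 and EXPA15 reach from a large decrease past 0, so equal levels were not shown.

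**Figure D1:**
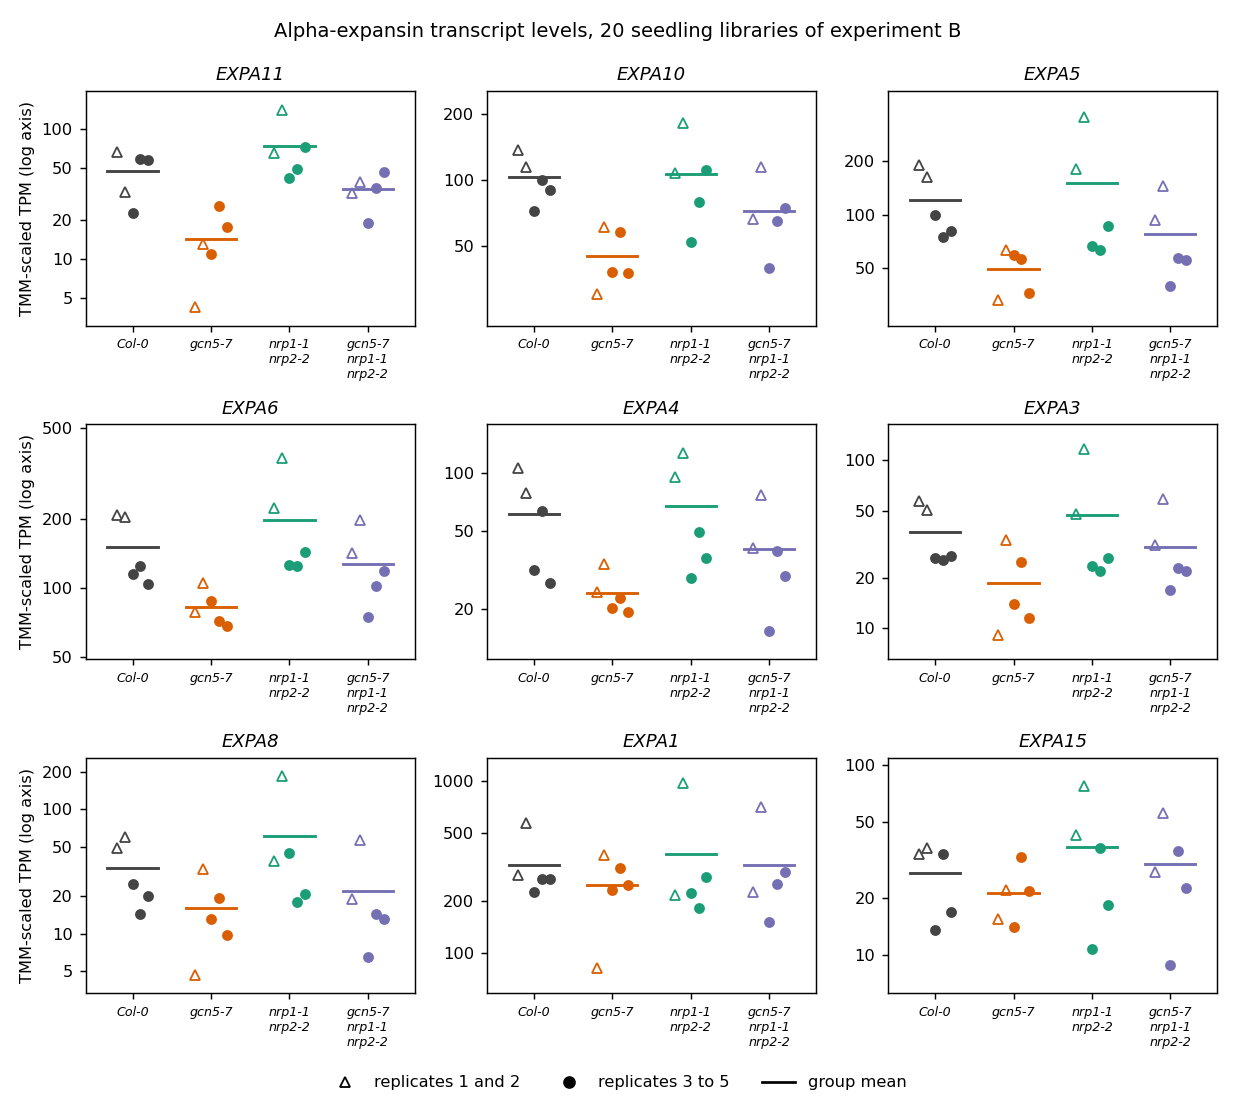
Level of each tested alpha-expansin gene (TMM-scaled TPM, log axis) in the 20 libraries of experiment B, 1 point per library, with the group mean as a line and replicates 1 and 2 drawn as open triangles. The gcn5-7 mean is the lowest of the 4 in all 9 panels, and replicate 2 of nrp1-1 nrp2-2 is the highest point in all 9.

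EXPA10 and EXPA11 were called whichever of the 10 libraries was left out, with adjusted p at most 0.0322 and 0.0162 (limma). EXPA5 was called in 4 and EXPA6 in 3 of those 10 fits, and 2 genes remained called without replicate 1 or 2 of Col-0 or replicate 1, 3, 4 or 5 of gcn5-7. Replicates 1 and 2 were higher than replicates 3 to 5 for 7 of the 9 genes in Col-0, but for 1 of 9 in gcn5-7. With replicates 3 to 5 alone, EXPA5 was called (-0.75, adjusted p = 0.0496, limma; 7.5% of all genes called lower), while EXPA6 was at 0.0533, EXPA10 at 0.058 (difference -0.97) and EXPA11 at 0.0731 (difference -1.27). In that subset EXPA1 and EXPA15 had differences of 0.04 and 0.11, above 0. With replicates 1 and 2 alone, 5 genes were called, EXPA4 being the added one (11.1% of all genes called lower). The median of the 9 differences was -1.56 with replicates 1 and 2 alone, beside 0.045 over all genes. It was -0.69 with replicates 3 to 5 alone, beside 0.053.

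The deposited columns do not have equal sums, and the sums moved with the alpha-expansin levels. Scaled to equal sums without organelle genes, the median of all genes in gcn5-7 against Col-0 moved from 0.06 to 0.41. The calls over all genes moved from 2254 higher and 2864 lower to 4643 higher and 1525 lower. All 9 alpha-expansin genes stayed below that median, and EXPA11 (-1.37, adjusted p = 0.00923), EXPA10 (-0.79, 0.00955) and EXPA5 (-0.82, 0.0403) stayed called by limma. EXPA6 did not (adjusted p = 0.0618, limma), and EXPA15 came to 0.10, above 0 but below the shifted median.

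The nrp1-1 nrp2-2 double mutant shows these genes with GCN5 intact. Its group means were the highest of the 4 genotypes for all 9 genes, yet 0 were called, beside 0.39% of all genes, and 0 reached an unadjusted p below 0.05 (limma). EXPA11 read 65.1, 141, 42.0, 49.5 and 72.7 in nrp1-1 nrp2-2, and its difference from Col-0 was 0.59 (95% interval -0.23 to 1.42, limma adjusted p = 0.983). EXPA10 differed by -0.03 (-0.67 to 0.60) and EXPA1 by -0.03 (-1.01 to 0.95). The median difference was 0.11, beside -0.05 over all genes, with 7 of the 9 above 0 here and 4 of 9 under equal sums. Replicate 2 was the highest library of the group for all 9 genes, and its EXPA1 value was 971 against 183 to 278 in the other 4. With replicates 3 to 5 alone, 6 of the 9 differences were below 0 and the median was -0.03, while replicates 1 and 2 alone gave 0 below 0 and a median of 0.48.

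In the triple mutant, 8 of the 9 genes had differences below 0 against Col-0 (median -0.41, beside 0.03 over all genes; 7 of 9 under equal sums), and 0 were called, beside 2.43% of all genes. The number at an unadjusted p below 0.05 was also 0. EXPA10 read 66.5, 115, 39.7, 65.1 and 74.8 and was nearest to the threshold (-0.55, 95% interval -1.19 to 0.08, limma adjusted p = 0.508). EXPA15 differed by 0.04 (-0.94 to 1.02).

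Against gcn5-7, all 9 genes had higher means in the triple mutant (median difference 0.57, beside -0.0007 over all genes). Of them 0 were called, beside 3.21% of all genes. An unadjusted p below 0.05 was reached by 2 of the 9, beside 4166 of all 19507 genes (limma). EXPA11 read 32.4, 39.3, 18.9, 35.4 and 46.6 in the triple mutant. Apart from replicate 3, these values lay above all 5 gcn5-7 libraries. The difference was 1.34 ± 0.40 (limma adjusted p = 0.0676). EXPA10 differed by 0.64 ± 0.30 (adjusted p = 0.231, limma) and EXPA6 by 0.57 ± 0.30 (adjusted p = 0.28, limma). Deviations of same-numbered libraries had r from 0.116 (replicate 1) to 0.538 (replicate 2) in this comparison, all above the 0.1 set for pairing. With a replicate block 3 genes were called higher, beside 13.6% of all genes. They were EXPA11 (adjusted p = 0.00994), EXPA6 (0.0257) and EXPA10 (0.0285), by limma. EXPA11 was also called without replicate 4 of gcn5-7 or replicate 3 of the triple mutant. With replicates 3 to 5 alone, 3 of the 9 differences were below 0 and the median was 0.33, against 0 of 9 and 1.19 with replicates 1 and 2 alone.

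Against nrp1-1 nrp2-2, the triple mutant had lower means of all 9 genes (median difference -0.57, beside 0.10 over all genes). Under equal sums 7 of 9 differences were below 0. In the main test 0 were called, beside 0.713% of all genes. An unadjusted p below 0.05 was reached by 2354 of all 19507 genes and by 1 of the 9 (limma). That gene was EXPA11 (-1.003, 95% interval -1.83 to -0.18, limma adjusted p = 0.331). The interaction, which asks whether the triple mutant departs from the sum of its parents' differences, was above 0 for 8 of the 9 genes (median 0.47, beside 0.02 over all genes; 7 of 9 under equal sums). It called 0 of them, beside 0.041% of all genes, and 0 at an unadjusted p below 0.05. EXPA11 had an interaction of 0.74 (-0.43 to 1.91) and EXPA10 of 0.67 (-0.23 to 1.57), so a departure from additivity was not detectable. The median interaction was 0.24 with replicates 3 to 5 alone, where 3 of 9 were below 0, and 0.78 with replicates 1 and 2 alone. These comparisons share libraries, those with Col-0 the same 5 controls, and are not independent of each other.

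**Figure D2:**
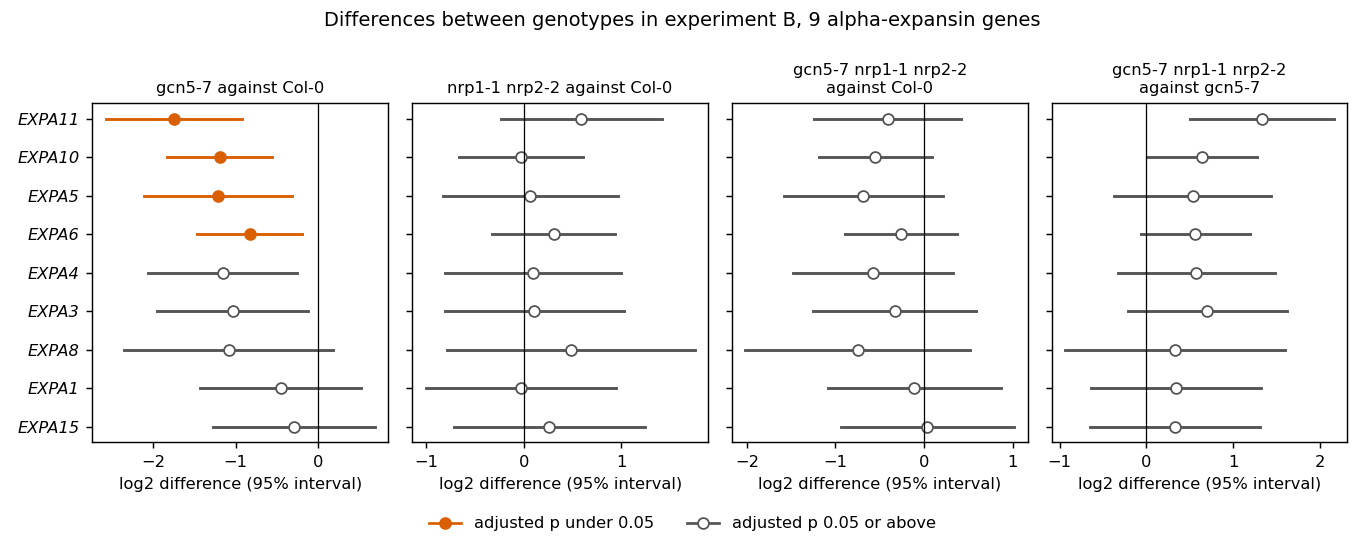
Log2 difference of each alpha-expansin gene in 4 comparisons of experiment B, with its 95% interval from the limma fit and filled orange points where the adjusted p was below 0.05. The 4 filled points are EXPA11, EXPA10, EXPA5 and EXPA6 in gcn5-7 against Col-0, and the intervals of the triple mutant against Col-0 all include 0.

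Experiment A set gcn5-7 beside arp6-1, with 2 Col-0 libraries shared by its comparisons. In gcn5-7 against Col-0, 7 of the 9 genes had differences below 0 (median -0.59, beside 0.01 over all genes; 6 of 9 under equal sums), and 0 were called, beside 0.142% of all genes. EXPA11 read 115 and 18.5 in Col-0 and 60.0, 7.52 and 16.6 in gcn5-7. In each genotype replicate 1 was the high library, so the groups overlapped widely. The difference was -1.19 (95% interval -3.32 to 0.95, limma adjusted p = 0.896), an interval that includes the value seen in B. EXPA1 differed by 0.50 (-1.23 to 2.23), on the other side of 0. Without the 3 libraries numbered 1 of Col-0, gcn5-7 and arp6-1, which leaves 1 Col-0 library, the median of the 9 genes was -0.147, beside -0.083 over all genes, and 5 of 9 lay below the median of all genes.

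In arp6-1, 8 of the 9 genes had their highest group mean, all 9 differences from Col-0 were above 0 (median 0.43, beside 0.0041 over all genes), and 0 were called, beside 0.0164% of all genes. The number at an unadjusted p below 0.05 was 0, as it was for gcn5-7. EXPA5 read 729, 176 and 124 in arp6-1 against 455 and 69.6 in Col-0. Replicate 1 was again the high library of both, and the difference was 0.49 (-1.58 to 2.56, limma adjusted p = 1.0). Without the 3 libraries numbered 1, the median of the 9 genes was 1.02, beside 0.02 over all genes, again against 1 Col-0 library and with 0 called.

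In the gcn5-7 arp6-1 double mutant, EXPA6 fell against arp6-1. It read 82.9, 67.7 and 59.0 in the double mutant and 324, 195 and 150 in arp6-1. The groups were far apart, with means of 69.9 ± 12.1 and 223 ± 90.3 (n = 3 each). The difference was -1.60 ± 0.44 (limma adjusted p = 0.0368). It was the 1 call among 9 genes, beside 2.96% of all genes called lower, and the median of the 9 was -0.72, beside 0.12 over all genes.

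EXPA4 and EXPA5 also did not overlap between the double mutant and arp6-1, as was so for 28.8% of all genes in this direction. EXPA5 read 87.3, 71.4 and 54.0 in the double mutant, far under the 124 to 729 of arp6-1 (-1.84, 95% interval -3.69 to 0.02, adjusted p = 0.121, limma). EXPA4 read 33.5, 46.1 and 43.9 there and 179, 101 and 65.7 in arp6-1 (-1.36, -2.65 to -0.07, adjusted p = 0.106, limma). EXPA10 and EXPA8 differed by -0.01 and -0.03 with overlapping libraries. Without the 3 libraries numbered 1, EXPA6, EXPA4 and EXPA5 were all called lower, beside 26.0% of all genes. In that fit 6 of the 9 differences were below 0, not all 9, and the median was -0.155, beside -0.046 over all genes. The EXPA6 call was lost without replicate 1 or 2 of arp6-1 or any library of the double mutant. Under equal sums it was -0.78 (adjusted p = 0.095, limma), where the median of all genes was 0.82, all 9 alpha-expansin genes were below that median, and 5 of them were above 0.

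Against gcn5-7, the double mutant had differences above 0 for 6 of the 9 genes (median 0.09, beside 0.12 over all genes; 8 of 9 under equal sums) and 0 called, beside 13.7% of all genes, with 0 at an unadjusted p below 0.05. EXPA10 read 64.5, 99.1 and 108 in the double mutant and 79.3, 36.0 and 34.7 in gcn5-7. The replicate numbered 1 was the highest in gcn5-7 and the lowest in the double mutant, and the difference was 0.92 ± 0.42 (limma adjusted p = 0.154). Without the 3 libraries numbered 1 of Col-0, gcn5-7 and arp6-1, 4 genes were called higher, beside 23.8% of all genes, 8 of 9 differences were above 0 and the median was 0.65, beside 0.10 over all genes. They were EXPA10 (1.30, adjusted p = 0.00581), EXPA3 (0.9999, 0.0136), EXPA15 (0.65, 0.0375) and EXPA11 (1.38, 0.0421), by limma. EXPA6 lay on the other side of 0 at -0.46 in that subset and was not called. Some markers of other cells moved in this comparison too, all libraries used, beside 9.79% of all genes called higher. Of 6 guard cell genes 3 rose (KAT1, FAMA and KAT2), and of 3 floral genes 2 (SEP3 and SEP1). The guard cell genes MUTE (-0.74), SPCH (-0.04) and MYB60 (0.27) and the floral gene AP1 (0.76) were not called. The summed floral markers were 0.977 to 2.46 in gcn5-7 and 14.0 to 29.7 in the double mutant, and the part of such cells in the EXPA10 difference was not tested.

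Against Col-0, the double mutant had 5 of 9 differences below 0 (median -0.11, beside 0.18 over all genes). Under equal sums 3 of 9 were below 0. The main test gave 0 calls, beside 2.06% of all genes. An unadjusted p below 0.05 was reached by 4476 of all 18322 genes and by 1 of the 9 (limma). That gene was EXPA6, whose libraries did not overlap those of Col-0 (242 and 132), as held for 21.9% of all genes in this direction (-1.36, 95% interval -2.43 to -0.28, limma adjusted p = 0.15). Without replicate 2 of Col-0, EXPA6 and EXPA4 were called, but that fit sets the double mutant against 1 Col-0 library, the high one, and takes its spread from the other genotypes. The direction of the group turned without the 3 libraries numbered 1, which also leaves 1 Col-0 library. There 1 of 9 differences was below 0 and the median was 0.71, beside 0.03 over all genes, and with a term for those libraries 3 of 9 were below 0 and the median was 0.75. The interaction of gcn5-7 with arp6-1 (median -0.38, beside 0.06 over all genes) called 0 of the 9 genes, beside 1.38% of all genes, and 0 reached an unadjusted p below 0.05. EXPA6 was nearest, at -1.01 (-2.45 to 0.44, limma adjusted p = 0.386).

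**Figure D3:**
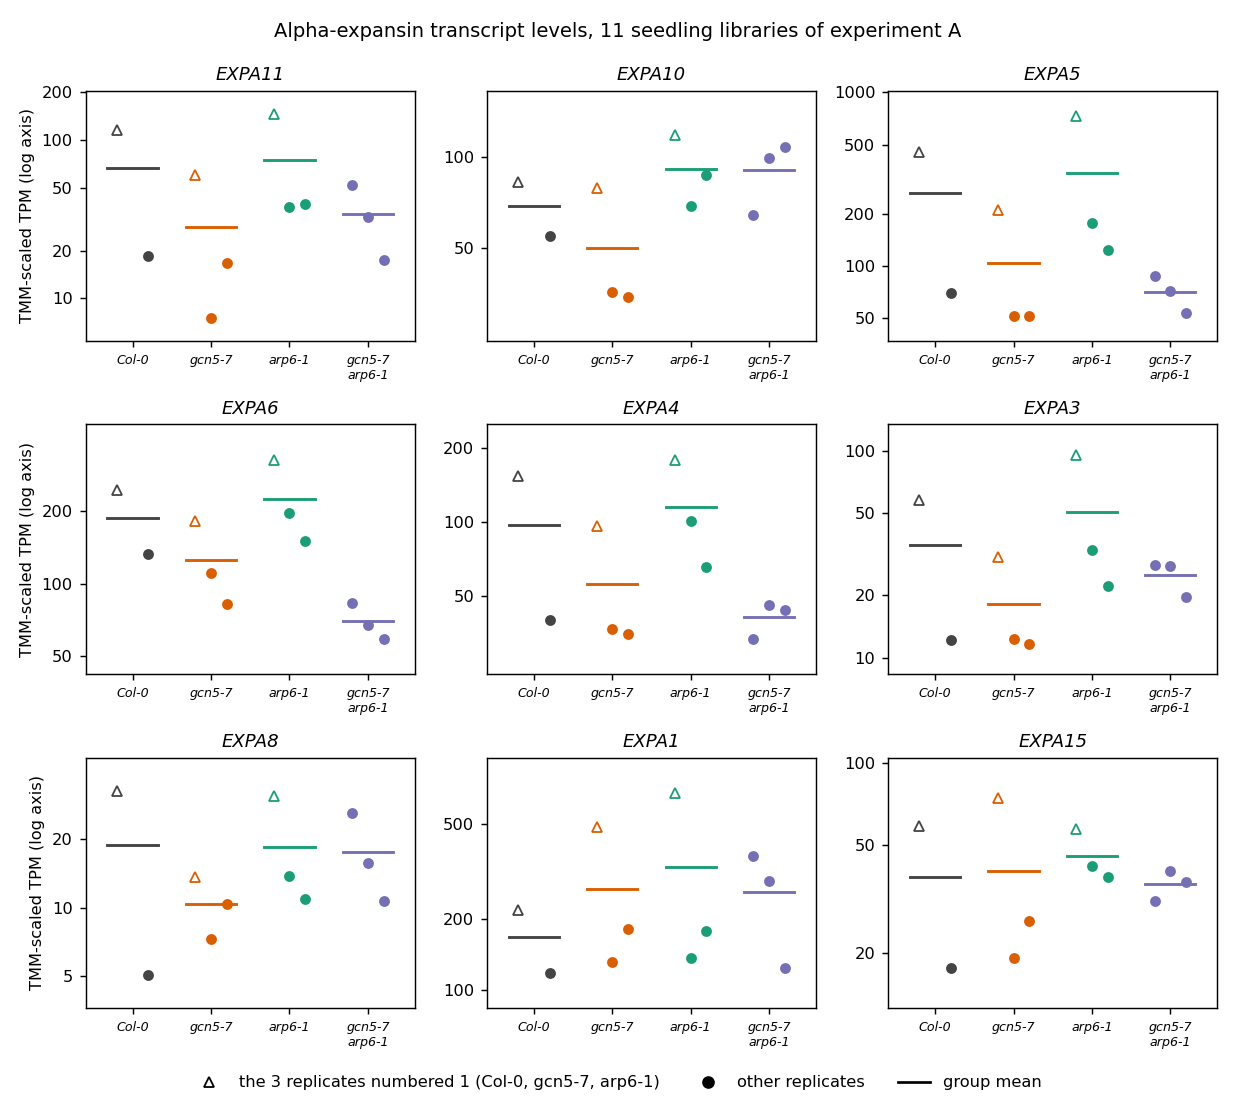
Level of each tested alpha-expansin gene (TMM-scaled TPM, log axis) in the 11 libraries of experiment A, 1 point per library, with the group mean as a line and the libraries numbered 1 of Col-0, gcn5-7 and arp6-1 as open triangles. In those 3 genotypes the library numbered 1 is the highest in all 9 panels, and in the panel of EXPA6 the 3 double mutant libraries lie below all arp6-1 libraries.

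The 9 genes moved together from library to library. In B the Pearson correlation of log2 levels between genes ran from 0.555 to 0.953 over 36 gene pairs (median 0.784, 20 libraries), and with group means removed it ran from 0.404 to 0.949 (median 0.778). The closest pair was EXPA5 and EXPA6. In A it ran from 0.24 to 0.961 (median 0.704, 11 libraries), lowest for EXPA6 with EXPA10. These points share libraries, depth and scaling, and the values are given as a description.

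The libraries with the highest alpha-expansin levels also had the largest column sums. Replicate 2 of nrp1-1 nrp2-2 had the largest sum in B, 1794259, and the highest value of all 9 genes. Replicate 1 of gcn5-7 had the smallest, 704073, and the lowest value of 6 genes. In A, replicate 1 of arp6-1 had the largest sum, 2078175, and the highest value of 7 genes. The 3 libraries numbered 1 of Col-0, gcn5-7 and arp6-1 had sums of 1388374 to 2078175, and the other 8 of A had 715741 to 1098191. Chloroplast-encoded transcripts made up 0.669% and 0.386% of the values in Col-0 replicates 1 and 2 of B and at most 0.173% in replicates 3 to 5. They made up 0.550% and 0.198% in replicates 1 and 2 of nrp1-1 nrp2-2. The share was 0.300%, 0.552% and 0.212% in replicates 1 to 3 of the triple mutant, and 0.0966% to 0.136% in gcn5-7 of B. The part of the column sums and of these transcripts in the alpha-expansin differences was not tested beyond the fits without these libraries and the equal-sum scaling given above.

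**Figure D4:**
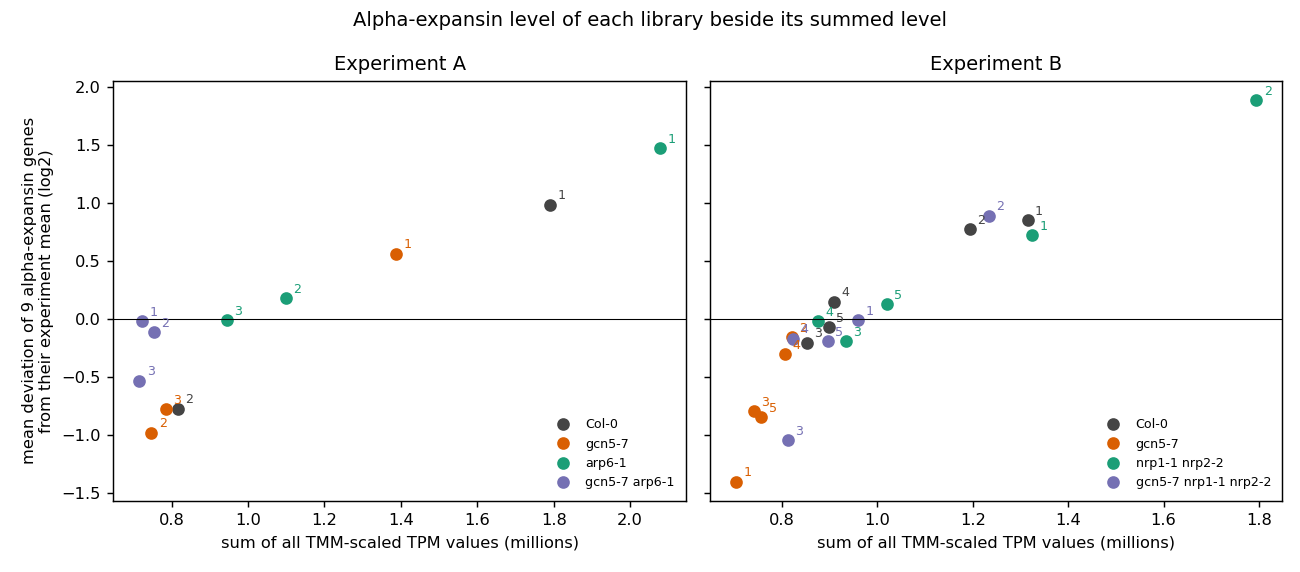
Mean log2 deviation of the 9 tested alpha-expansin genes from their experiment mean, against the sum of all TMM-scaled TPM values of the library, for experiments A (11 libraries) and B (20 libraries), with replicate numbers beside the points. The libraries with the largest sums have the highest alpha-expansin levels in both panels, and the range in B is from -1.40 in replicate 1 of gcn5-7 to 1.89 in replicate 2 of nrp1-1 nrp2-2.

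Some leaf photosynthesis genes also fell in gcn5-7 of B, where 14.7% of all genes were called lower and 11.6% higher. Of 7 such genes, 4 passed the test in gcn5-7 of B, among them the antenna gene LHCB3 (-1.21, adjusted p = 0.00676, limma), the Rubisco small subunit gene RBCS1A (-1.18, 0.0121) and LHCB1.1 (-1.36, 0.0154). Their summed level was 40900 to 73800 in the Col-0 libraries and 13900 to 32200 in gcn5-7. The sum was 38900 to 126000 in nrp1-1 nrp2-2 and 32100 to 70700 in the triple mutant. Summed guard cell markers were 23.4 to 51.9 in Col-0 and 19.8 to 30.5 in gcn5-7, with 1 of 7 called lower (FAMA, a guard cell regulator, -0.89, adjusted p = 0.0277, limma). KAT1, SLAC1 and KAT2 differed by 0.60, 0.26 and 0.12, above 0. MYB60, MUTE and SPCH differed by -1.04, -0.44 and -0.24, and none of these was called. Summed root markers were 74.9 to 98.7 and 99.3 to 240, with 1 of 3 tested higher (BGLU23, the beta-glucosidase PYK10, 1.25, adjusted p = 0.00691, limma). The other tested root markers, SCR and SHR, differed by -0.26 and -0.40, below 0, and were not called. The root hair regulators RHD6 and RSL4 were at 0 in every group. Floral markers summed to 3.54 to 11.8 and 1.36 to 2.29, with 0 of 2 called. The part of tissue makeup in the alpha-expansin differences was not tested.

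The rest of the expansin superfamily was sparser. Its calls in gcn5-7 of B stand beside 14.7% of all genes called lower. Those between gcn5-7 arp6-1 and gcn5-7 in A stand beside 13.7% called in either direction. Of 16 other alpha-expansin genes, 15 are in the tables and 5 were tested in B, and 0 were called in gcn5-7 (median -0.55). EXPA16 was nearest, at 16.3 ± 7.09 in Col-0 and 8.04 ± 7.48 in gcn5-7 (-1.16, adjusted p = 0.0599, limma), and EXPA9, EXPA13, EXPA14 and EXPA20 also had differences below 0. Beta-expansins act on other matrix polysaccharides, and EXPB1 fell from 8.60 ± 3.28 to 0.833 ± 0.418 (-2.34 ± 0.36, adjusted p = 0.000227, limma), 1 of 2 tested. In the triple mutant EXPB1 was at 2.25 ± 1.11 and stayed below Col-0 (-1.56, adjusted p = 0.0197, limma). In A it was at 0.462 ± 0.264 in gcn5-7 and rose to 7.11 ± 1.88 in gcn5-7 arp6-1 (2.46 ± 0.56, adjusted p = 0.0185, limma). Of the expansin-like genes, whose wall activity is not established, 2 of 3 tested fell in gcn5-7 of B. EXLB1 fell from 29.0 ± 15.3 to 0.0182 ± 0.0407 (-4.73, adjusted p = 8.6e-08, limma), and EXLA2 by 1.24 on the log2 scale (adjusted p = 0.00999, limma). In A, EXLB1 rose from 0.0433 ± 0.0397 in gcn5-7 to 19.8 ± 4.30 in gcn5-7 arp6-1 (4.30, adjusted p = 0.000407, limma), while EXLA1 fell (-2.02, 0.0094).

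**Figure D5:**
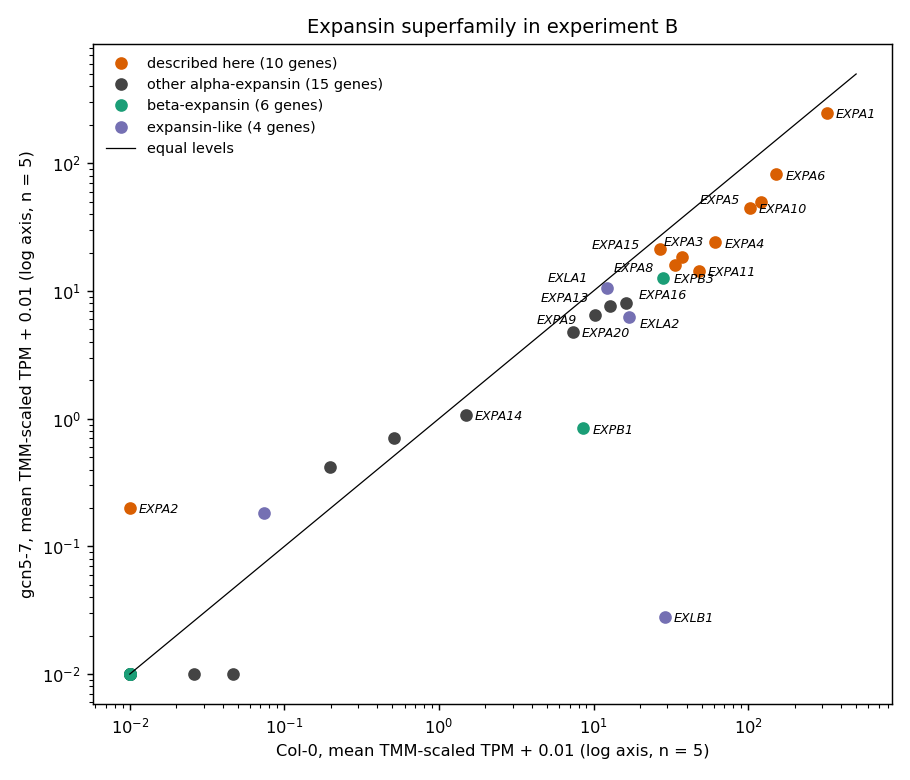
Mean level of 35 expansin superfamily genes in Col-0 (horizontal) and gcn5-7 (vertical) of experiment B, both as TMM-scaled TPM plus 0.01 on log axes, n = 5 libraries each. The tested alpha-expansin genes lie below the line of equal levels, EXPB1 and EXLB1 lie farthest below it, and EXPA2 is at 0 in Col-0.

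Genes known to act upstream of expansins, or beside them in growth, were counted in the same way, beside the 14.7% of all genes called lower and 11.6% called higher in gcn5-7 of B. Of 11 plasma membrane proton pump genes, 7 were tested in gcn5-7 of B and 0 were called (median 0.22). Of the SAUR19 to SAUR24 group, whose proteins keep proton pumps active, 4 were tested and SAUR23 fell (-1.63, adjusted p = 0.00179, limma), although reads may be shared among these near-identical neighbours. Of 23 growth regulators tested, 4 fell and 1 rose (PIF3). The 4 that fell were RGA (-0.83, adjusted p = 0.0216, limma), RGL2 (-1.28, adjusted p = 0.0021, limma), GAI (-1.11, 0.00568) and RGL1 (-1.30, 0.0164), all of which encode DELLA repressors of gibberellin responses. A count of 4 in 23 is near the share of all genes called lower. Of 11 genes of primary wall synthesis, the cellulose synthase gene CESA9 rose (0.94, adjusted p = 0.0014, limma) and the xyloglucan xylosyltransferase gene XXT2 fell (-0.46, adjusted p = 0.022, limma). In A, between gcn5-7 arp6-1 and gcn5-7, the proton pump genes AHA8 (1.77, adjusted p = 0.00747, limma) and AHA3 (2.27, 0.0302) rose, 2 of 6 tested, beside 9.79% of all genes called higher. Of 24 growth regulators tested there, 4 rose, led by BEE2 (1.83, adjusted p = 0.0154, limma), PIF7 (2.41, 0.0174) and PIF3 (1.31, 0.0199), which encode basic helix-loop-helix factors of growth.

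The genes of B whose pattern was most like that of EXPA11, by Pearson's r of log2 levels over 20 libraries, were OHP2 (r = 0.97), FKBP13 (r = 0.969) and AT3G47070 (r = 0.969). OHP2 is a one-helix protein of the chloroplast and FKBP13 an immunophilin of the thylakoid lumen. Over the 11 libraries of A their r with EXPA11 was 0.809, 0.916 and 0.819. In gcn5-7 of B they fell by 0.85, 1.56 and 1.28 on the log2 scale (adjusted p = 0.0198, 0.00665 and 0.0133, limma). The points share libraries and scaling, and the genes were chosen for their likeness.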

How the data were processed

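The authors deposited 1 table per experiment of a signal, TPM scaled by TMM. Reads were trimmed with fastp 0.23.4 and aligned with HISAT2 2.2.1 to TAIR10, per the submitters' processing notes. The sources used here do not give the read counter, annotation, strand handling or filters. Multiplied by exon length and rescaled per library, the values came to whole read numbers (within 0.05) for 98.82 to 99.66% of values below 20 reads, which gives the depth.

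Experiments were fitted separately, over all 4 genotypes, on log2(value + 1) with limma 3.58.1 in R 4.3.3 (mean-variance trend, robust), for genes with a mean of at least 1 (18322 in A, 19507 in B). Tests are 2-sided, and the threshold was 0.05 after Benjamini-Hochberg adjustment over all genes tested. The procedure was tested on simulated data. No count model was the main test, because the values are not counts. Intervals are 95% and come from the spread between libraries.

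The members, gene lists and tests were chosen with earlier results of these data known. Named were all 10 members, called expansin superfamily genes, up to 3 called genes per other list, and the 3 genes most like the top member. RGA, the rise of PIF3 in B and the 5 other alpha-expansin genes tested were added after their values were seen. Replicate numbers were accepted as pairs where deviations from group means of every same-numbered pair had r above 0.1, with at least 3 such pairs. This held for the triple mutant against gcn5-7 (0.116 to 0.538), Col-0 (lowest 0.276) and nrp1-1 nrp2-2 (lowest 0.375). It also held for nrp1-1 nrp2-2 against Col-0 (lowest 0.591). The main fits and their intervals used no pairing, and the replicate block was an alternative. Pairs were not accepted for gcn5-7 against Col-0 in B (lowest 0.0185). Nor were they in A, where comparisons with Col-0 have only 2 pairs and the others had a lowest r of -0.033 and 0.041. Promoters and gene models are RefSeq TAIR10.1, and 32548 of 32833 identifiers matched.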

Additional observations from a re-analysis of the deposited data

Results flagged for a closer look

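In 7 of 39 groups of 5 libraries, 1 library of an alpha-expansin gene stood apart from the other 4, and all 7 were a replicate 2 and the highest of their group. The rule was Dixon's ratio, the gap to the next value over the range, above 0.71. It flags about 1 in 20 groups of normally distributed values. Here it was applied to unlogged levels, for which that rate may not hold. The genes move together between libraries, so these are not separate events. In nrp1-1 nrp2-2, replicate 2 read 971 for EXPA1 (others 183 to 278), 117 for EXPA3 (others 22.1 to 48.0), 184 for EXPA8 (others 17.8 to 44.2) and 1.02 for EXPA2 (others 0 to 0.217), the last from 6 reads. In gcn5-7 nrp1-1 nrp2-2, replicate 2 read 706 for EXPA1 (others 151 to 297) and 56.4 for EXPA8 (others 6.52 to 19.0). In Col-0, replicate 2 read 573 for EXPA1 (others 227 to 283). The other replicate 2 library, of gcn5-7, read 372 for EXPA1 and was also the highest of its group, without standing as far apart.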

How the results depend on the processing

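For gcn5-7 against Col-0 in B, the 4 calls became 2 (EXPA10 and EXPA11) at a threshold of 0.01 and with no filter on low values, 7 with a replicate block (pairing not accepted there), 1 with replicates 3 to 5 alone, and 2 to 5 when leaving out 1 library. Over these settings, leaving out single libraries aside, that comparison called 2011 to 9714 of all genes, against 5118. For the triple mutant against gcn5-7, 0 calls became 3 with a replicate block, 1 with the block and gene-length correction, 1 with quantile normalization and 0 to 1 when leaving out 1 library. Over all genes, calls higher moved there from 405 to 2653 with the block, 2753 with block and length correction and 844 with quantile normalization. For gcn5-7 arp6-1 against arp6-1, the 1 call became 0 at 0.01, under equal sums or with gene-length correction. It became 3 with a term for the 3 libraries numbered 1, without them, with only the groups compared or with a replicate block, 2 with block and length correction together, and 0 to 1 when leaving out 1 library. Against gcn5-7, 0 became 4 with the term for the libraries numbered 1 and 4 without them, and 1 under equal sums or quantile normalization. Against Col-0, 0 became 1 (EXPA6) with that term or the block, and 0 to 2 when leaving out 1 library (the 2 against a lone Col-0 library, assumed to vary like the other groups). The calls over all genes moved too. The genes called lower in gcn5-7 arp6-1 against arp6-1 went from 542 to 3756 with the term. They numbered 3262 with only the groups compared and 3956 with the block. Against gcn5-7, genes called higher went from 1793 to 4273 with the term, 1395 under equal sums and 2129 with quantile normalization. Against Col-0, genes called lower went from 69 to 976 with the term and 822 with the block. Apart from the stricter threshold, what caused each move was not tested, also where a fit held fewer samples. The other comparisons kept 0 alpha-expansin calls throughout. The block changed no other count of alpha-expansin calls. Of the single-gene values, 2177 kept their side of the threshold, 42 gained a call, 31 lost one and 0 called values changed sign. The alternatives on subsets of replicates, on recovered reads (limma-voom, 4 calls in gcn5-7 of B) and of the block with length correction were chosen after seeing the data. With 2 Col-0 libraries in A, every interval of gcn5-7 against Col-0 included 0.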
